A study of Mus musculus with 6 samples.

Results

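Transcripts of the complement system were examined in mouse liver by RNA sequencing. The set holds 34 genes of the components, regulators and receptors of complement, taken by symbol. All 34 were present among the 23291 genes of each deposited table, and 32 passed a filter on low values (at least 1 FPKM in at least 3 libraries). FPKM is a fragment count scaled to gene length and library size, so levels of different genes can be set side by side. The dabigatran group comprised C57BL/6 mice given a high fat (Western) diet that contained 10 mg/g dabigatran etexilate, for 3 months. The diet group comprised C57BL/6 mice given the high fat diet alone for 3 months. No animals on a normal diet were analysed here, so every value is from liver under a high fat diet. Dabigatran replicates 0 and 1 had the same value for each of the 23291 genes, so this pair entered once, as dabigatran replicate 1. The comparison therefore rests on 2 dabigatran libraries (replicates 1 and 2) and 3 diet libraries (replicates 0, 1 and 2). That replicates are separate animals is given only by the word mice in the study's design text, and no source used here states sex or age. The labelled tissue held its defining transcripts: the albumin gene Alb had 18530 and 27250 FPKM in the dabigatran libraries, against 20510, 18650 and 21820 FPKM in the diet libraries. Relative depth ranged between 0.761 and 1.00 of that of diet replicate 0, and 10006 to 10399 genes reached 1 FPKM per library. Libraries stood apart: on the first principal component of all tested genes (49.2% of the variance) the scores were -15.8 and -48.7 for dabigatran replicates 1 and 2 and 29.5, 6.16 and 28.8 for diet replicates 0, 1 and 2, so diet replicate 1 was nearest to the dabigatran group.

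Complement is a cascade of plasma proteins, most of them made by hepatocytes, that tags and lyses targets and calls in leukocytes. The classical pathway starts with C1q bound to antibody, the lectin pathway with mannose-binding lectins or ficolins bound to sugars, and the alternative pathway with spontaneous turnover of C3. All 3 converge on cleavage of C3 and C5, after which C5b, C6, C7, C8 and C9 assemble into the membrane attack complex. Thrombin, the enzyme that dabigatran inhibits, can cleave C3 and C5 itself. Regulators in plasma and on cell membranes restrain each step.

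Of the 32 tested complement genes, 1 was called lower with dabigatran and 0 higher (limma, adjusted p under 0.05 over all tested genes). Over all 10247 tested genes, 0.429% were called, 0.127% as higher and 0.303% as lower. At an unadjusted p under 0.05, 4 complement genes were higher and 3 lower, against 6.87% and 9.13% of all tested genes (16.0% in either direction). The gene called was Cfd, for factor D of the alternative pathway. The filter was met in Cfd by the 3 diet libraries alone, and a gene detected only in the 2 dabigatran libraries could not have met it. Nothing is therefore read from the p of Cfd or from the split of 1 to 0. The next lowest p values belonged to Cd59a, C6, Mbl2, C3 and C8b, none of which passed the adjusted threshold. In 9 of the 32 genes both dabigatran libraries lay above every diet library, and in 7 both lay below, beside 17.2% and 17.2% of all tested genes (34.4% in either direction). The median log2 difference of the 32 genes (dabigatran minus diet, on log2(FPKM + 0.5)) was 0.10, beside 0.02 over all tested genes. Its sign depended on single libraries: it was -0.14 without dabigatran replicate 1 and -0.04 without diet replicate 0.

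**Figure D1:**
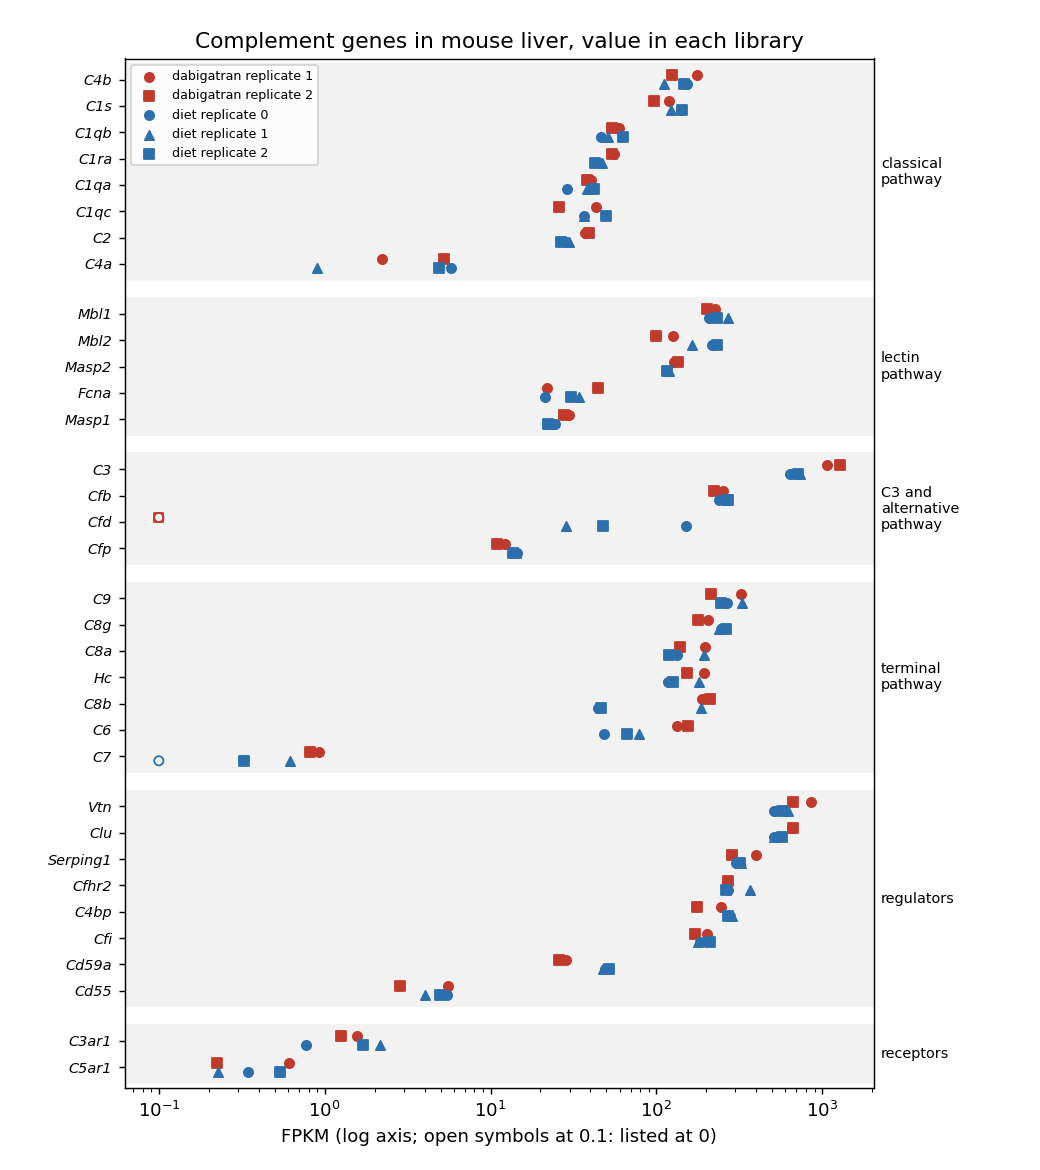
FPKM of the 34 complement genes in each library (log axis), grouped by pathway and ordered by mean level, with the 2 dabigatran libraries in red above the 3 diet libraries in blue. C3 reached 1064 and 1273 FPKM in the dabigatran libraries, whereas Cfd was listed at 0 in both, drawn as open symbols at 0.1.

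The members spanned more than 3 orders of magnitude. C3, the protein on which all pathways converge, ranked 50 to 79 of the 10247 tested genes by FPKM, depending on the library. Vtn (66 to 103), Clu (79 to 114) and Serping1 (135 to 231), which encode fluid-phase regulators, had the next highest mean levels. At the low end were C7, for which 5 and 4 fragments were recovered in the dabigatran libraries and 0, 3 and 2 in the diet libraries, and the receptor genes C3ar1 and C5ar1. Fragments are the smallest whole numbers in the ratio of the values and cover counting error only. The summed FPKM of the 34 genes was 6299 and 5763 in the dabigatran libraries, against 5076, 5638 and 5330 in the diet libraries. Without C3 the sums overlapped between the groups, with 5235 and 4490 FPKM with dabigatran and 4439, 4908 and 4619 FPKM on the diet alone. C3 made up 16.9% and 22.1% of the summed level in the dabigatran libraries, against 12.5%, 12.95% and 13.3% in the diet libraries.

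**Figure D2:**
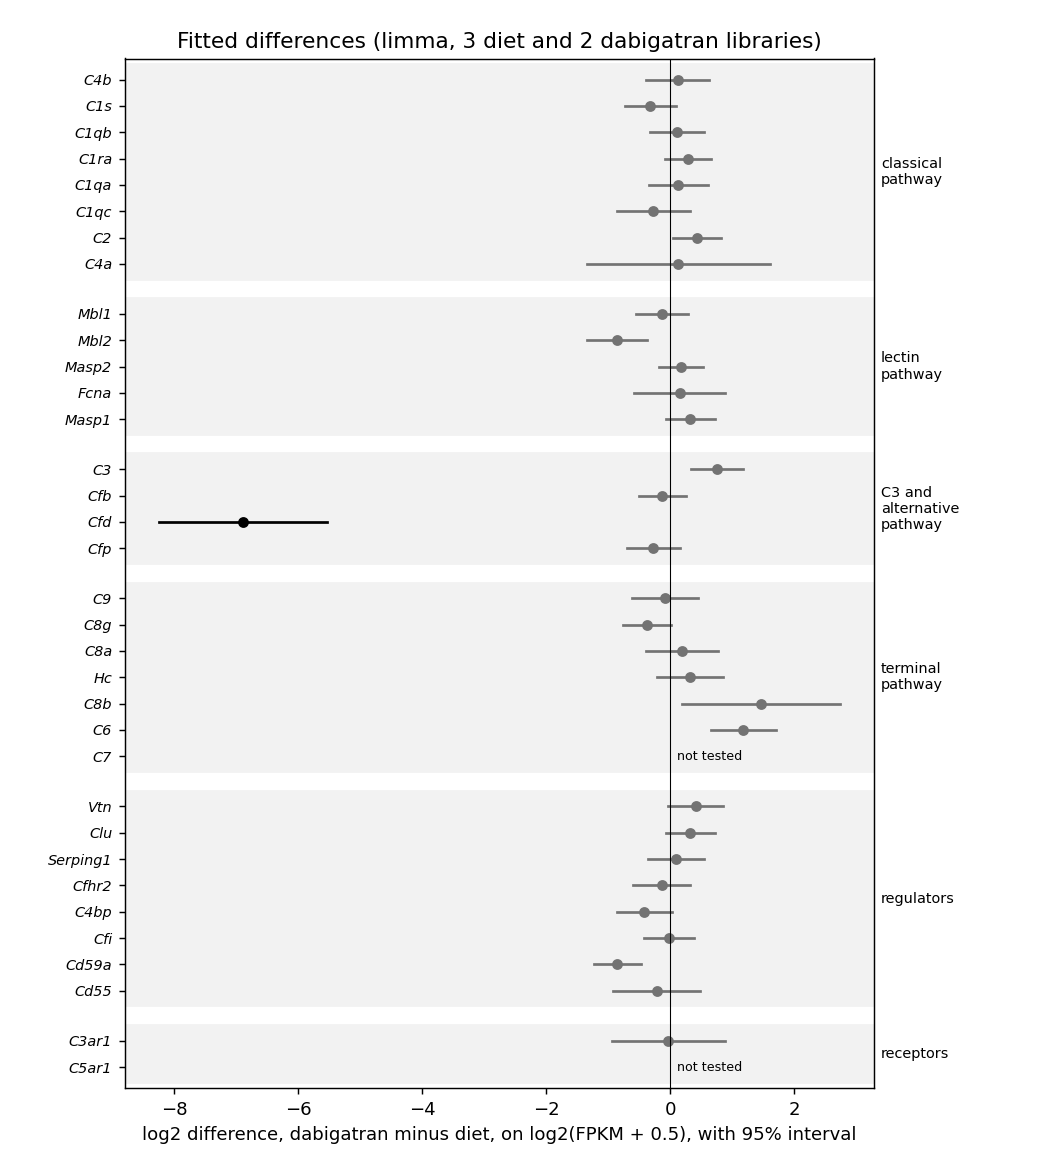
Log2 difference (dabigatran minus diet) of each tested complement gene with its 95% interval from limma, grouped by pathway; black marks the gene that passed the adjusted threshold and grey the others. The fitted value of Cfd, -6.89, rests on dabigatran libraries listed at 0 and on the added 0.5 FPKM, whereas 25 of the other 31 intervals include 0.

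Factor D is the serine protease that cleaves factor B bound to C3b and so makes the alternative pathway convertase. Its gene Cfd (chromosome 10, 79890853 to 79892655, plus strand, GRCm38) is also known as adipsin, after its abundance in fat cells. The listed level was 0 FPKM in each dabigatran library, against 150.4, 28.3 and 47.5 FPKM in diet replicates 0, 1 and 2. The recovered fragments were 0 and 0 with dabigatran and 272, 39 and 83 on the diet alone. Cfd was thus detected in every diet library, at levels that differed 5.31-fold among them, while each dabigatran table gave it a value of 0. In limma the difference passed over all genes (adjusted p = 0.011), but Cfd entered this test through the diet group alone, so its p is not read as support. No fold is given against a group listed at 0, since an exact 0 in such tables can be a failed estimate. The call was lost without dabigatran replicate 2 (adjusted p = 0.101), without diet replicate 2 (0.0599), with no filter on low values (0.0535), without a variance trend (0.0502) and with voom on fragments (0.188). Over all alternatives its adjusted p ran between 6.14e-05 and 0.188.

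Fat cell markers were read beside Cfd. Lep and Plin1, for leptin and the lipid droplet coat perilipin 1, were listed at 0 in every library, and Adipoq, for adiponectin, was listed at 0 in all but diet replicate 0, where it had 0.320 FPKM. Retn (0.677 FPKM) and Slc7a10 (0.202 FPKM) were likewise listed above 0 in diet replicate 0 alone, the library with the highest Cfd. These values were near 0, and these genes were not tested. Nnat, of the same list and also not tested, was higher with dabigatran. It had 2.00 and 3.33 FPKM there and 0.429, 0.563 and 0.444 FPKM on the diet alone. Adrb3 overlapped between the groups, with 0.889 and 1.58 FPKM with dabigatran and 2.135, 1.80 and 1.26 FPKM on the diet alone. Markers that are not restricted to fat cells were present in every library: Fabp4, for a fatty acid binding protein also found in endothelium and macrophages, had 16 and 34.3 FPKM with dabigatran and 29.3, 15.6 and 31.2 FPKM on the diet alone. Cidec, for a lipid droplet protein, had 23.1 and 23.3 FPKM with dabigatran and 42.3, 20.5 and 45.1 FPKM on the diet alone. Both overlapped between the groups. The summed level of the 12 fat cell markers measured was 182 and 164 FPKM in the dabigatran libraries, against 1776, 575 and 1784 FPKM in the diet libraries. Most of that sum was Car3, a carbonic anhydrase gene also abundant in liver, with 130.02 and 92.9 FPKM in the dabigatran libraries and 1691, 526 and 1693 FPKM in the diet libraries. Like Cfd, Car3 was lowest among the diet libraries in replicate 1 and was called lower with dabigatran (limma, adjusted p = 0.0404). Among the 5 tested markers it was the 1 that was called. The part of these markers in the Cfd values was not tested. The 250 bases before the Cfd start are shown because Cfd is the member that passed the test (RefSeq, GRCm38.p6, chr10:79890603-79890852, plus strand, 5′ to 3′).
Cfd: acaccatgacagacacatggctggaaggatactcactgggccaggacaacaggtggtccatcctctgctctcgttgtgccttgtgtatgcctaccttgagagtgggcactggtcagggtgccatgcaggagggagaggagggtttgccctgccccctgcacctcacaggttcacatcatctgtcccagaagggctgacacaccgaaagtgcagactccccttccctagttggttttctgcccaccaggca
A search of both strands for binding motifs of C/EBP (TTGCNNAA), STAT (TTCNNNGAA) and HNF4 (CAAAGTCCA), and for the longer HNF1 and DR1 motifs, matched none of these letters in this window. In all 27025 RefSeq promoter windows of the same length, C/EBP letters occurred in 9.55%, STAT letters in 7.18%, HNF4 letters in 0.381%, the DR1 in 0.037% and the HNF1 letters in 0.007%. Promoter windows were found for 25 of the 34 members, of which 3 held a C/EBP match, 3 a STAT match and 0 any of the other 3 motifs.

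C3 itself (chromosome 17, 57203970 to 57228136, minus strand) had 1064 and 1273 FPKM in dabigatran replicates 1 and 2, against 636, 730.2 and 712 FPKM in diet replicates 0, 1 and 2. The groups did not overlap, and the diet libraries lay close together. The log2 difference was 0.75 ± 0.18 (SE; 95% interval 0.33 to 1.18), which is 1.68-fold, and did not pass over all genes (limma, adjusted p = 0.115, and 0.0774 to 0.446 over the alternatives). Cfb, for the factor B that pairs with C3b, did not share this difference: it had 251 and 222 FPKM with dabigatran and 238.5, 266 and 270.5 FPKM on the diet alone (log2 difference -0.13, 95% interval -0.51 to 0.26). The ratio of C3 to Cfb was 4.24 and 5.73 in the dabigatran libraries, against 2.67, 2.74 and 2.63 in the diet libraries. Of the Cfb windows of 50 bases, 73.0% are shared with other genes, so the Cfb level is uncertain. The gene that shares the most is Gm20547, an annotated gene that overlaps C2 and Cfb on the same strand. Properdin, which stabilises the alternative convertase and is made by leukocytes, is encoded by Cfp, which had 12.2 and 10.9 FPKM in the dabigatran libraries and 14.4, 14.2 and 13.7 FPKM in the diet libraries (log2 difference -0.28, adjusted p = 0.503). These rest on 35 and 28 fragments against 48, 36 and 44. The C3 window is shown for comparison with that of Cfd, with its C/EBP match in capitals (GRCm38.p6, chr17:57228137-57228386, minus strand, read 5′ to 3′ along the gene).
C3: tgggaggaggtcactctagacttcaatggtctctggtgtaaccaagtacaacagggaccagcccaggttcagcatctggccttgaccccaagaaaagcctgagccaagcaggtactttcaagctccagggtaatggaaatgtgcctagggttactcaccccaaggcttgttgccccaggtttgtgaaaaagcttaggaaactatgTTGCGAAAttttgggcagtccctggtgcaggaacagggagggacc
The match lies at -45 to -38 relative to the start. It is a match of letters and no measurement of binding.

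In the classical pathway, 0 of 8 genes were called and the median log2 difference was 0.12. C1q, the antibody-binding subunit, is made by macrophages, and its 3 chains are encoded side by side on chromosome 4. C1qa had 40.6 and 38.0 FPKM with dabigatran and 28.9, 38.0 and 42.1 FPKM on the diet alone. C1qb had 59.9 and 53.9 FPKM with dabigatran and 46.3, 51.1 and 62.7 FPKM on the diet alone. C1qc had 43.0 and 26 FPKM with dabigatran and 36.4, 36.8 and 49.8 FPKM on the diet alone. The groups overlapped for each chain, with 95% intervals of -0.34 to 0.60, -0.34 to 0.54 and -0.87 to 0.32 on the log2 scale. The 3 chains kept nearly the same proportions across libraries (C1qa at 0.678 and 0.706 of C1qb with dabigatran and 0.625, 0.744 and 0.671 on the diet), except C1qc in dabigatran replicate 2, at 0.482 of C1qb beside 0.718 to 0.794 in the other libraries. In that library the summed level of 18 macrophage and Kupffer cell markers was also the lowest, at 321 FPKM, beside 516 in dabigatran replicate 1 and 407, 451 and 474 in the diet libraries. Not all markers were low there: the Kupffer cell gene Clec4f had 60.2 and 57.8 FPKM with dabigatran and 55.4, 60.1 and 67.95 FPKM on the diet alone. Cd163, for a scavenger receptor, had 11.9 and 13.2 FPKM with dabigatran, above 3.38, 6.11 and 3.52 FPKM on the diet alone (limma, adjusted p = 0.0714). Of the 16 tested markers 0 passed over all genes, and their part in the C1q levels was not tested. In whole liver, a change in macrophage number and a change in RNA per macrophage could not be told apart.

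The proteases that C1q activates had small differences of opposite sign. C1ra had 55.5 and 53.8 FPKM with dabigatran, above 44.9, 47.3 and 42.5 FPKM in the diet libraries (log2 difference 0.28, adjusted p = 0.436). C1s had 120 and 97.3 FPKM with dabigatran, below 141, 122 and 143 FPKM in the diet libraries (log2 difference -0.32, adjusted p = 0.415). Both have a close copy, C1rb and C1s2, and 50.8% and 35.1% of their windows are shared with other genes, above all with these copies, so these levels are uncertain. C2, the protease of the classical and lectin convertase, had 37.2 and 39.0 FPKM with dabigatran, above 28.7, 29.6 and 26.5 FPKM on the diet alone (log2 difference 0.43 ± 0.17, SE; unadjusted p = 0.0342, adjusted p = 0.269, limma). Of its windows, 41.5% are shared with other genes, above all with Gm20547. C4b, the C4 gene that provides the other convertase subunit, had 175 and 123 FPKM with dabigatran and 152, 112 and 147 FPKM on the diet alone, and the groups overlapped (95% interval -0.40 to 0.63). C4a, the neighbouring copy known as sex-limited protein, was far lower, at 2.23 and 5.25 FPKM with dabigatran and 5.82, 0.905 and 4.91 FPKM on the diet alone. It made up 1.26% and 4.08% of the C4 total in the dabigatran libraries and 3.68%, 0.802% and 3.23% in the diet libraries. Of the C4a and C4b windows, 30.6% and 34.6% are shared with other genes, above all with each other, and the sources do not say how reads common to both were counted.

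The lectin pathway had 0 of 5 genes called and a median log2 difference of 0.15. Mbl2, for mannose-binding lectin C, had 126 and 99.2 FPKM in the dabigatran libraries, against 217.5, 165 and 233 FPKM in diet replicates 0, 1 and 2. Every dabigatran library lay below every diet library, and diet replicate 1 was the lowest of the diet group. The log2 difference was -0.86 ± 0.21 (SE; 95% interval -1.34 to -0.38), without a call over all genes (limma, adjusted p = 0.114, and 0.0353 to 0.446 over the alternatives). Mbl1, for mannose-binding lectin A, had 226 and 203 FPKM with dabigatran and 208, 270.2 and 232 FPKM on the diet alone, and the groups overlapped (95% interval -0.55 to 0.28). The ratio of Mbl1 to Mbl2 was 1.80 and 2.05 in the dabigatran libraries, against 0.958, 1.64 and 0.996 in the diet libraries. Diet replicate 1 therefore lay near the dabigatran libraries in this ratio.

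The lectin-associated proteases varied less. Masp1 had 29.8 and 27.7 FPKM with dabigatran, above 24.3, 22.4 and 22.1 FPKM on the diet alone (log2 difference 0.32, adjusted p = 0.405). Masp2, which cleaves C4 and C2, had 128 and 134 FPKM with dabigatran, above 114, 119 and 116 FPKM on the diet alone (log2 difference 0.17, adjusted p = 0.631), though 52.5% of its windows are shared, mostly with Tardbp, whose exons overlap it on the opposite strand. Ficolin A, a sugar-binding starter of the pathway, is encoded by Fcna, which had 22.0 and 44.3 FPKM with dabigatran and 21.4, 34.1 and 30.6 FPKM on the diet alone, so its 2 dabigatran libraries enclosed 2 of the diet libraries.

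The terminal pathway showed the widest range of differences apart from Cfd. Of 6 tested genes 0 were called, and the median log2 difference was 0.25. C6 (chromosome 15, 4727175 to 4814967, plus strand), the first protein to join C5b, had 134 and 155 FPKM in the dabigatran libraries, against 48.5, 79.1 and 66.3 FPKM in diet replicates 0, 1 and 2. The groups were well apart. The log2 difference was 1.17 ± 0.23 (SE; 95% interval 0.65 to 1.70), or 2.26-fold, with an adjusted p of 0.0739 in limma (0.0215 to 0.327 over the alternatives). C8b (chromosome 4, 104766317 to 104804548, plus strand), for the C8 beta chain, had 189 and 211 FPKM with dabigatran, against 44.7, 185 and 46.2 FPKM on the diet alone. Diet replicate 1 lay just below the dabigatran libraries, whereas diet replicates 0 and 2 were far lower than either. The log2 difference was 1.45 ± 0.55 (SE, adjusted p = 0.259, and 0.0032 to 0.620 over the alternatives).

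Of the other chains of C8, the alpha chain followed C8b in part and the gamma chain did not. C8a (chromosome 4, 104815679 to 104876398, minus strand), for the alpha chain, lies 11130 bases from C8b and is transcribed towards it. It had 197 and 138 FPKM with dabigatran and 132, 193 and 120 FPKM on the diet alone, and the groups overlapped. Like C8b, C8a was higher in dabigatran replicate 1 and diet replicate 1 than in diet replicates 0 and 2. Unlike C8b, it lay near diet replicate 0 in dabigatran replicate 2. C8g, for the gamma chain, had 206 and 178 FPKM with dabigatran, below 246, 239 and 263.5 FPKM on the diet alone (log2 difference -0.38, adjusted p = 0.317). The secreted C8 protein contains all 3 chains. The ratio of C8b to C8a transcripts was 0.960 and 1.53 in the dabigatran libraries, against 0.337, 0.958 and 0.386 in the diet libraries. C8b was thus scarce relative to C8a in diet replicates 0 and 2 and close to it or above it in the other 3 libraries. The windows before the starts of C6, C8b and C8a are shown. C6 and C8b had the largest positive differences among the members, while C8a is the neighbour of C8b and shared its pattern only in part. Capitals mark the STAT match, found at -228 to -220 relative to the C8a start (GRCm38.p6, read 5′ to 3′ along each gene, at chr15:4726960-4727209 on the plus strand, chr4:104766067-104766316 on the plus strand and chr4:104876399-104876648 on the minus strand).
C6: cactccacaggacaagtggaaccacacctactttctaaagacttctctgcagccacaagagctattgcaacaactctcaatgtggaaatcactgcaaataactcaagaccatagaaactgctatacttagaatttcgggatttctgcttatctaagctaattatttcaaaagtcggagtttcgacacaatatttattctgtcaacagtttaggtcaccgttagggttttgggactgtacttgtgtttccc
C8b: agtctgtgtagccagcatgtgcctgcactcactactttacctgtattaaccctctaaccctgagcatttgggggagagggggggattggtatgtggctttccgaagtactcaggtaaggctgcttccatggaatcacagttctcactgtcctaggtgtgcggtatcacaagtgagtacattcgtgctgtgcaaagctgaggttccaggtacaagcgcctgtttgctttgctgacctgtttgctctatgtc
C8a: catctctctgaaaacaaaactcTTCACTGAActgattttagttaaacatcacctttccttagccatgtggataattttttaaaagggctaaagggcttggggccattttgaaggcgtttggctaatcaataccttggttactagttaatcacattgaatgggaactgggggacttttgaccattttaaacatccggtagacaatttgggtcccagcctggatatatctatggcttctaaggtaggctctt
None of the 5 motifs matched in the C6 or C8b window.

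**Figure D3:**
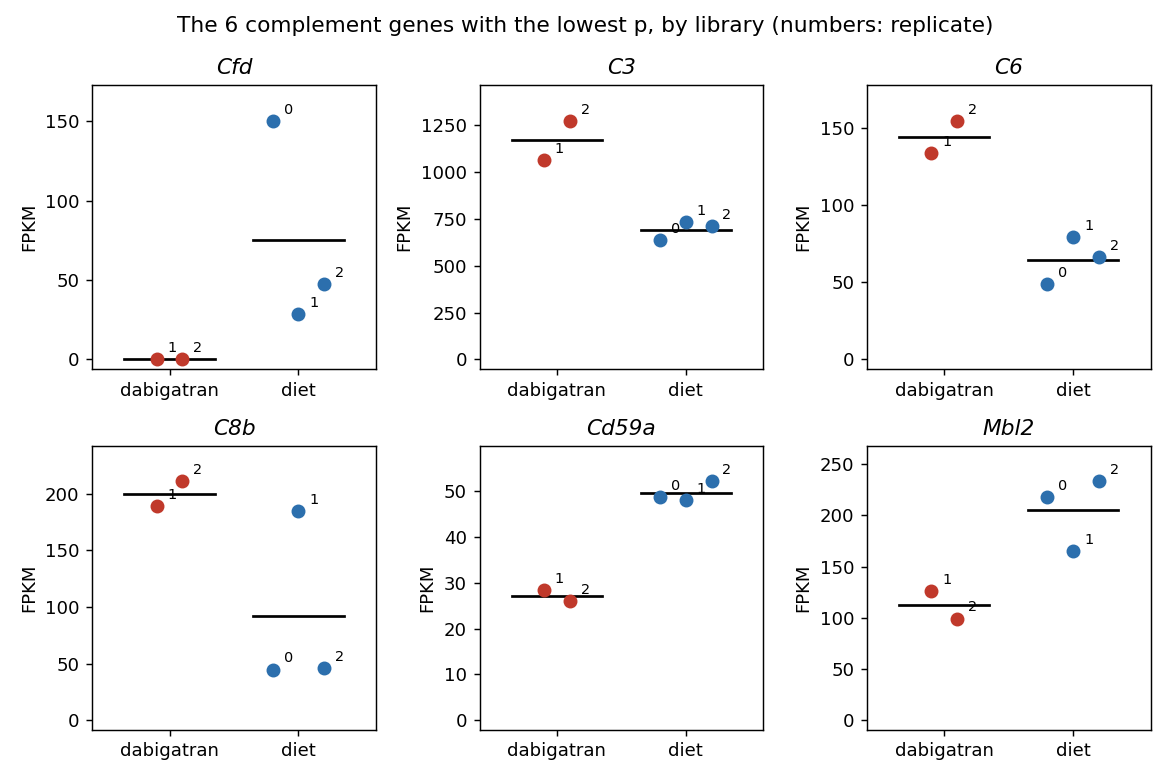
FPKM by library for the 6 complement genes with the lowest p; dots are libraries numbered by replicate, bars are group means, and each vertical axis is linear and includes 0. The groups do not overlap in any of these genes, which were picked by p, but the C8b value of diet replicate 1 (185 FPKM) sits just below the dabigatran libraries.

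Hc, which encodes C5, had 194 and 154 FPKM with dabigatran and 118, 180.0 and 126 FPKM on the diet alone. C9, whose copies polymerise into the pore, had 325 and 213 FPKM with dabigatran and 268, 330 and 245 FPKM on the diet alone. The groups overlapped for both, with 95% intervals of -0.21 to 0.84 and -0.62 to 0.45 on the log2 scale. In Hc, C8a and C9 the highest libraries were dabigatran replicate 1 and diet replicate 1, a pattern found in 9.6% of all tested genes and chosen for mention after the values were seen. C7 was too low to test, with 0.920 and 0.817 FPKM with dabigatran and 0, 0.622 and 0.326 FPKM on the diet alone.

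Among 8 regulators 0 were called, and the median log2 difference was -0.09. Cd59a (chromosome 2, 104095801 to 104115354, plus strand), a membrane-anchored protein that blocks C9 insertion, had 28.4 and 25.9 FPKM in the dabigatran libraries, against 48.7, 48.0 and 52.1 FPKM in diet replicates 0, 1 and 2. Both groups were tight, and diet replicate 1 lay with the other diet libraries here. The log2 difference was -0.86 ± 0.17 (SE; 95% interval -1.24 to -0.48), with an adjusted p of 0.0727 in limma (0.0472 to 0.314 over the alternatives). Cd55, which dissociates C3 convertases on cell surfaces, had 5.56 and 2.86 FPKM with dabigatran and 5.45, 4.02 and 4.93 FPKM on the diet alone, so its libraries overlapped. Serping1, for the C1 inhibitor, had 398 and 284 FPKM with dabigatran and 300.2, 325.5 and 320 FPKM on the diet alone, with diet values inside the dabigatran range.

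No plasma regulator of C3 or C4 was called. Cfi, for the protease that inactivates C3b and C4b, had 202 and 171 FPKM with dabigatran and 183, 177 and 209 FPKM on the diet alone (95% interval -0.43 to 0.37). C4bp, its cofactor for C4b, had 245 and 175 FPKM with dabigatran, below 278, 284 and 270.3 FPKM on the diet alone (log2 difference -0.42, adjusted p = 0.330). Cfhr2, for a plasma protein related to complement regulators, had 267 and 269 FPKM with dabigatran and 269, 366 and 261 FPKM on the diet alone, with 29.2% of its windows shared with another gene. Vtn and Clu encode vitronectin and clusterin, which bind the nascent terminal complex and keep it off membranes. Vtn had 854 and 666 FPKM with dabigatran, above 514, 626 and 573 FPKM on the diet alone (log2 difference 0.41, adjusted p = 0.357). Clu had 660.0 and 668 FPKM with dabigatran, above 510.4, 511 and 574 FPKM on the diet alone (log2 difference 0.32, adjusted p = 0.395). Neither passed, although the groups did not overlap in Vtn, Clu or C4bp.

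The anaphylatoxin receptors, carried by myeloid cells, were barely detected. C3ar1 had 1.57 and 1.25 FPKM with dabigatran and 0.771, 2.153 and 1.70 FPKM on the diet alone, from 14 and 10 fragments against 8, 17 and 17. C5ar1 was not tested, with 0.607 and 0.225 FPKM with dabigatran and 0.347, 0.228 and 0.539 FPKM on the diet alone. The 95% interval of C3ar1 was -0.94 to 0.87 on the log2 scale, and no difference is given for C5ar1.

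The position of diet replicate 1 in the terminal pathway was picked for mention after the values were seen. In all 6 tested terminal genes this library lay outside the range of diet replicates 0 and 2 on the side of the dabigatran mean. The same held in 19 of the 32 members, which include these 6, and in 45.1% of all tested genes. The margin was small in C8g (239 FPKM, against 246 in diet replicate 0). In C6 diet replicate 2 (66.3 FPKM) lay nearer to diet replicate 1 (79.1 FPKM) than to diet replicate 0 (48.5 FPKM). In C9 the dabigatran mean (269.1 FPKM) barely exceeded diet replicate 0 (267.6 FPKM). The fitted C9 difference was negative (-0.08), while diet replicate 1 was the highest library. Limma called 1 member without dabigatran replicate 1 or diet replicate 0, 0 without dabigatran replicate 2 or diet replicate 2, and 5 without diet replicate 1, where 2.87% of all tested genes were called. Of the 5, C6 and C8b were higher in limma, with log2 differences of 1.33 (adjusted p = 0.0215) and 2.12 (0.0032). Mbl2 (-1.01, 0.0353), Cd59a (-0.88, 0.0472) and Cfd (adjusted p = 0.00161) were lower. Cfd was also the member called without diet replicate 0. It met the filter through the diet libraries alone, so its calls in these fits are not read as support. In C6, C8b, Cfd and Mbl2 diet replicate 1 lay towards the dabigatran libraries, so larger differences without it follow from that position. The Cd59a difference was nearly the same with all libraries (-0.86), and why Cd59a was called without diet replicate 1 was not tested. The acute phase gene Saa1, for a serum amyloid A protein induced by interleukin-6, also separated the libraries without regard to group, with 6141 and 116 FPKM in dabigatran replicates 1 and 2 and 187, 2940 and 227 FPKM in diet replicates 0, 1 and 2. The summed level of 22 acute phase genes was 28940 and 15300 FPKM with dabigatran and 10160, 20560 and 11700 FPKM on the diet alone. C3 and C6 were highest in dabigatran replicate 2, where Saa1 was lowest. Not all acute phase genes followed Saa1. In 7 of the 21 tested, both dabigatran libraries lay above every diet library, and in 0 both lay below. Over all tested genes these shares were 17.2% and 17.2%. Each of the 7 (Fga, Fgb, Fgg, Itih3, Lbp, Serpina3n and Cd14) was highest in dabigatran replicate 2. Dabigatran replicate 1 and diet replicate 1 were the highest libraries in 4 of the 32 members, or 12.5%, near the 9.6% of all tested genes. The part of the acute phase in these levels was not tested.

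**Figure D4:**
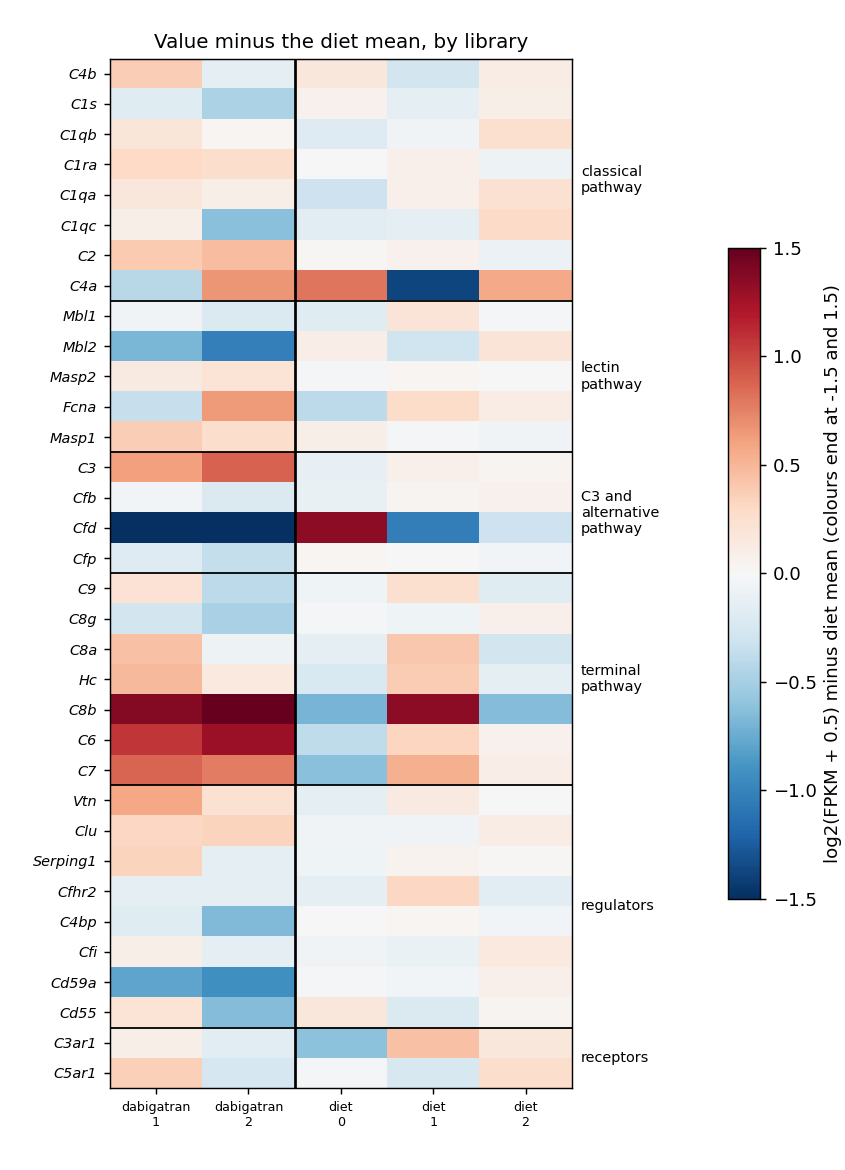
Log2(FPKM + 0.5) of each complement gene minus its mean over the 3 diet libraries, with dabigatran libraries at the left of the black line and diet libraries at the right; red is above and blue below the diet mean. C8b lies 1.38 and 1.53 above the diet mean in dabigatran replicates 1 and 2 and 1.34 above it in diet replicate 1, and Cd59a is at -0.79 and -0.92 with dabigatran and between -0.05 and 0.07 in the diet libraries.

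A list of 32 other complement genes held 28 that were measured and 19 that were tested. Of these 0 rose and 0 fell in limma, and the median log2 difference was 0.02, equal to that of all tested genes. In 1 of them both dabigatran libraries lay above the diet libraries and in 4 both lay below, beside 17.2% and 17.2% of all tested genes, and nothing is read from these counts. The 6 with the lowest p were Cd59b, Cpn2, Colec12, Apcs, Calr and Susd4. Cd59b, the copy next to Cd59a, had 0.785 and 0 FPKM with dabigatran and 2.02, 3.53 and 4.18 FPKM on the diet alone, on 1 and 0 fragments against 3, 4 and 6. It met the filter through the diet libraries alone, and its p is not read. Cpn2, a subunit of the carboxypeptidase N that inactivates C3a and C5a, had 79.3 and 76.8 FPKM with dabigatran, above 56.0, 49.9 and 45.9 FPKM on the diet alone (log2 difference 0.63, adjusted p = 0.144). The collectin gene Colec12 had 12.3 and 10.99 FPKM with dabigatran, below 20.4, 15.8 and 24.4 FPKM on the diet alone (log2 difference -0.75, adjusted p = 0.173). Apcs, Calr and Susd4, which encode serum amyloid P, a C1q-binding chaperone and a membrane inhibitor, had positive differences with overlapping groups (adjusted p = 0.291, 0.344 and 0.476).

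Genes that control complement transcription in liver were read beside these values. Of 24 tested 0 were called, with a median log2 difference of 0.21. Stat3, the transcription factor downstream of interleukin-6, had 25.5 and 34.9 FPKM with dabigatran, above 20.9, 15.1 and 15.0 FPKM on the diet alone (log2 difference 0.81, adjusted p = 0.158). The receptor genes Il1r1 and Il6ra, for interleukin-1 and interleukin-6, had log2 differences of 1.92 and 1.08 (adjusted p = 0.175 and 0.192), with dabigatran replicate 2 the highest library in both. Among 21 tested acute phase genes 0 were called, the median log2 difference was 0.36, and the lowest p values belonged to Itih3 (log2 difference 1.37, adjusted p = 0.056), Serpina3n (1.33, 0.0863), Cd14 (1.24, 0.109) and Fga (0.75, 0.145), all limma.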

How the data were processed

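Liver RNA of C57BL/6 mice was sequenced after library preparation with Illumina's TruSeq kit (labels' protocols). The authors deposited 1 FPKM value per gene and library, the unit per the file headers. Per the submitters' processing notes, the tools were TopHat2 2.0.4, Cuffdiff, CASAVA and R 2.15.1 (TopHat is also listed) and the build mm10, or GRCm38; their roles are not given. How strand and multi-gene reads were treated is not given in the sources. FPKM divides by the library total, so a few abundant genes can lower the others. The 10 most abundant held 20.7% to 24.4% of a library.

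The 10247 genes that reached 1 FPKM in 3 or more of the 5 distinct libraries were fitted as log2(FPKM + 0.5) with limma 3.58.1 in R 4.3.3 (eBayes with a variance trend, group as sole term), two-sided, with Benjamini-Hochberg adjustment at 0.05. Differences on this scale understate the change of low genes. This fit was also tested on simulated data. SD is on the FPKM scale, SE on the log2 scale. P-values set the group difference against the spread between these libraries, with the variance of each gene drawn towards a trend over all tested genes.

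Relative depth, from the steps of values under 0.3 FPKM, was 0.857 and 0.772 in dabigatran replicates 1 and 2 and 1.00, 0.761 and 0.967 in diet replicates 0, 1 and 2. Whole fragments were recovered for 8191 tested genes (79.9%, tolerance 2e-05), against 0.8% after random shifts. Coordinates are from GENCODE vM21 (GRCm38) and promoters from RefSeq (GRCm38.p6). Starts can differ between these sources, so the C6 window, which ends at 4727209, runs past the GENCODE start of C6 at 4727175. C1s is named C1s1 there. Shared windows are 50-base stretches of a gene's transcripts that also occur, on either strand, in any other gene.

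The members and gene lists were chosen with earlier results of these data known. Every member is named, as are the called genes and those of lowest p in each other list (6 of the other complement genes, 4 of the regulators and of the acute phase genes). Of those, 1 regulator is not reported here. Alternatives were other pseudocounts, filters, scalings, voom, a replicate block and leaving out each library.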

Additional observations from a re-analysis of the deposited data

How the results depend on the processing

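Of 436 values of single complement genes under 14 alternatives, 404 kept their direction and their side of the threshold. Against 44 genes called, limma called 23 with a pseudocount of 0.1, 27 after quantile normalization, 16 with voom on whole fragments, 13 with a replicate block, and 0 with no filter on low values or without a variance trend (unadjusted p under 0.05 for 816 higher and 1117 lower genes, and for 692 and 870). Leaving out a library gave 0 to 294: 0 without dabigatran replicate 2 (340 and 670) or diet replicate 2 (496 and 611), and 294 without diet replicate 1. Against 1 complement gene called (Cfd), 0 were called with no filter (4 higher and 4 lower by unadjusted p), without a variance trend (3 and 3) and with voom (3 and 2), and 0 to 5 when a library was left out: 0 without dabigatran replicate 2 or diet replicate 2. The members' median of 0.10 was 0.00 (0.002) with voom, which covers 23 of them, and -0.036 with the block, and ranged between -0.14 and 0.15 with a library left out. Signs turned for C3ar1 after quantile normalization (0.042) and with voom (0.002), and for C1qa (-0.03) and Fcna (-0.048) with the block. With a library left out they turned for 12 genes: C1qa (-0.03 to 0.24), C1qc (-0.63 to 0.084), C3ar1 (-0.34 to 0.19), C4a (-0.56 to 0.66), C4b (-0.14 to 0.37), C8a (-0.071 to 0.44), C9 (-0.39 to 0.22), Cd55 (-0.65 to 0.20), Cfhr2 (-0.23 to 0.015), Cfi (-0.15 to 0.091), Fcna (-0.35 to 0.64) and Serping1 (-0.15 to 0.34). The cause was not tested. Libraries of the same number share only that number (correlations of deviations -0.045 and -0.025), and 2 pairs cannot show pairing. Where dabigatran has 1 library, its spread is assumed to be that of the diet group. Depth limits C7 and C3ar1, which rest on 17 fragments or fewer in each library.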
